A study of Mus musculus with 27 samples.

Results

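The D0 comparison set TET_KO embryonic stem cells against TET_WT embryonic stem cells, both mouse, before conversion to epiblast-like cells. It covered the autosomal windows with a methylation value in all 27 libraries used here, 422141 of the 453245 windows in the table. A further 6340 autosomal windows (1.48% of those on autosomes) lacked a value in at least 1 library and were left out. TET_KO carries, by its genotype label, a knockout of Tet1, Tet2 and Tet3, and TET_WT is the wild-type line of that pair. Both groups were labelled ESC and D0 and had 3 whole-genome bisulfite libraries each. The same lines were also sampled as epiblast-like cells on D1 and D2, and a separate wild-type line, DNMT_WT, was sampled on the same days, again with 3 libraries per line and day.

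The labels give neither the medium nor the number of clones behind TET_KO, and nothing in them tells if the replicates came from different cultures, so each p-value reflects only how far these libraries lay apart. Each value is the percentage of methylated CpG calls in a window named as holding 100 CpGs, and a difference is in percentage points, TET_KO minus TET_WT. A short window is therefore one in which CpGs are dense. The median window was 4949 bp long, with 5th and 95th percentiles of 1394 and 11288 bp. The table holds no read counts, so the depth behind a value is unknown. The deletions at Tet1, Tet2 and Tet3 were not looked for, since windows lacking a value in any library were left out before genes were measured. With no RNA measured, the labelled cell type could not be set against marker expression.

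In mammals, DNA methylation sits mainly on the cytosine of CpG, is copied after replication by Dnmt1 with its partner Uhrf1, and is laid down anew by Dnmt3a and Dnmt3b. The TET enzymes oxidise 5-methylcytosine to 5-hydroxymethylcytosine and further forms, which are lost by dilution at replication or are cut out by the glycosylase Tdg and replaced through base excision repair. Naive mouse embryonic stem cells are known for low methylation, and CpG islands, the CpG-rich stretches at many gene starts, are unmethylated in most cell types. Bisulfite conversion reads 5-methylcytosine and 5-hydroxymethylcytosine alike, so a level here is their sum.

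The comparison turned on how many CpGs stood at a gene's start. Of 32851 start regions in the RefSeq table (GRCm38.p6, 250 bases before to 50 bases after the start), the median held 7 CG dinucleotides, 43.6% held 0 to 5 and 24.8% held 21 or more. The regions below are printed 5′ to 3′ with each CG in capitals. Lhx9 and Tbx6 are shown because, among listed genes with a single start region in a window of at most 3000 bp, their start windows had the largest differences. Sycp1 and Dazl are the CpG-rich starts of the germline list with the largest differences, and Igf2r and Flt1 are listed CpG-rich starts with the differences nearest 0. The coordinates are chr1:138842395-138842694, minus strand, for Lhx9; chr7:126781233-126781532, plus strand, for Tbx6; chr3:102936051-102936350, minus strand, for Sycp1; chr17:50293571-50293870, minus strand, for Dazl; chr17:12769657-12769956, minus strand, for Igf2r; and chr5:147725962-147726261, minus strand, for Flt1.
Lhx9: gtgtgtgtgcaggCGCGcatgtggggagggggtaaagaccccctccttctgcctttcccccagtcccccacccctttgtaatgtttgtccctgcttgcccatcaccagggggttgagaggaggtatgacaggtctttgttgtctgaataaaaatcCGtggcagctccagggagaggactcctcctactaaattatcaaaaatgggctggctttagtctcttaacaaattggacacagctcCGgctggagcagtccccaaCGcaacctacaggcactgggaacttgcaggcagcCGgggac
Tbx6: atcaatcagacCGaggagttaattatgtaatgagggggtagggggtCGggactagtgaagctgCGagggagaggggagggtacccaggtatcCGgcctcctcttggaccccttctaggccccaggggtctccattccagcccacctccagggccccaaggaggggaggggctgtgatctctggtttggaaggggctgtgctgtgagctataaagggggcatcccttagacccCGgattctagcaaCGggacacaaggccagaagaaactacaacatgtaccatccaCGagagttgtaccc
Sycp1: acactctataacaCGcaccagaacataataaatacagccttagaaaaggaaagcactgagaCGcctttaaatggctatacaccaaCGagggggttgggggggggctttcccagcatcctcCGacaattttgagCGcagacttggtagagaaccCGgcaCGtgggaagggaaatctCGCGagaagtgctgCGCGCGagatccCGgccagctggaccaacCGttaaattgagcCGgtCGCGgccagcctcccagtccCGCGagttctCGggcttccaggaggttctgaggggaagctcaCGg
Dazl: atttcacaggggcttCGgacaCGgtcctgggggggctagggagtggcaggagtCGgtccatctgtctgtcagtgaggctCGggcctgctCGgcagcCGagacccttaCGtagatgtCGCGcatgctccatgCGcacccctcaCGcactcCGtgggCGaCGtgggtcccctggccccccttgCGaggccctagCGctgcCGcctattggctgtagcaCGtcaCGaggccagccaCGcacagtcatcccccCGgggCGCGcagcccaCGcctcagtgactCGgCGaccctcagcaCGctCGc
Igf2r: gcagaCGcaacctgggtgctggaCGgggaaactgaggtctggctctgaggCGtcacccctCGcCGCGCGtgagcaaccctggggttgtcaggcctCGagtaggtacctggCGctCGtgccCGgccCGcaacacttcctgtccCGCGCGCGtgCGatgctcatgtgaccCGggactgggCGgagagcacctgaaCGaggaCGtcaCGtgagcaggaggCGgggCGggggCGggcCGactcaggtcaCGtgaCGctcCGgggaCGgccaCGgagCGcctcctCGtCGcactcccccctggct
Flt1: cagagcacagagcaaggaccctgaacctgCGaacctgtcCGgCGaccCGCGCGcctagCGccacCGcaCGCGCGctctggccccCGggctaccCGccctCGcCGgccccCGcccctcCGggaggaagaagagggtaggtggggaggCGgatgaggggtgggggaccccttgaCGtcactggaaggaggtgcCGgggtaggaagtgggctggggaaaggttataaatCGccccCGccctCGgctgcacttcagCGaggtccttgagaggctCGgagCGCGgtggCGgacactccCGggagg

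The Lhx9 region, the start of a LIM-homeodomain factor of the developing gonad and brain, held 6 CG in a window of 1436 bp. That window stood at 45.3, 48.2 and 49.5% in TET_KO libraries, against 0.355, 0.650 and 1.14% in TET_WT libraries. The Tbx6 region, the start of a T-box factor of paraxial mesoderm, held 7 CG, with 55.7, 66.2 and 62.5% in TET_KO and 12.6, 16.8 and 19.8% in TET_WT. All TET_KO libraries lay above all TET_WT libraries at both. The Sycp1 region, the start of a synaptonemal complex gene of meiosis, held 21 CG in a window of 571 bp at 38.1, 49.8 and 42.1% in TET_KO, against 9.85, 8.19 and 5.41% in TET_WT. The Dazl region, the start of a germ cell RNA-binding protein gene, held 28 CG, with 63.4, 66.4 and 68.3% in TET_KO and 25.7, 39.0 and 41.8% in TET_WT, so the groups were apart there too. The Igf2r region, with 34 CG, was listed at 0 in all 6 libraries. The Flt1 region, the start of a VEGF receptor gene with 29 CG, reached 0.181% in 1 TET_KO library and 0.2% in 1 TET_WT library and was listed at 0 in the other 4.

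Across the genome, TET_KO was the more methylated line in almost every window. Mean autosomal methylation was 51.4, 51.0 and 53.1% in TET_KO libraries, against 24.9, 25.7 and 25.5% in TET_WT libraries. The means were 51.8% ± 1.10 and 25.4% ± 0.386 (SD, n = 3 each), a difference of 26.4 ± 0.672 points (SE) that was larger than the spread within either line. The two-sided exact permutation p was 0.1, the smallest that 3 against 3 allow, and the same holds for every class below. The whole distribution moved and widened: its 10th percentile stood at 30.5% in TET_KO and 9.78% in TET_WT, its 90th percentile at 68.3% in TET_KO and 40.2% in TET_WT, and the SD over windows was 16.9 points in TET_KO and 12.4 in TET_WT. Library medians lay further apart than means, at 55.6% in TET_KO and 25.2% in TET_WT over all nuclear windows, a shift of 30.4 points. Wherever a difference is below 30.4, its sign turns negative once each library is centred on its own median. The median of the differences window by window was smaller, at 27.7 points. The median SD between replicates of a window was 2.34 points in TET_KO and 1.80 in TET_WT.

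A window was called when the limma fit over all 444250 complete nuclear windows gave a Benjamini-Hochberg adjusted p under 0.05 and the difference reached 10 points. On that rule 392517 windows (93.0%) were higher in TET_KO, 92 (0.0218%) were lower and 29532 were not called. Without a minimum size 406225 windows were higher and 272 lower. In 407214 windows (96.5%) all 3 TET_KO libraries lay above all 3 TET_WT libraries, and in 293 (0.0694%) all lay below. The differences ran from 5.32 points at the 5th percentile through a median of 27.7 to 39.3 at the 95th percentile.

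CpG density sorted the windows. In windows under 1000 bp the mean was 3.19% ± 0.0841 in TET_KO and 1.402% ± 0.0237 in TET_WT, a difference of 1.79 ± 0.0504 points. Windows of 1000 to 3000 bp differed by 24.7 points, those of 3000 to 6000 bp by 28.9 (57.6% in TET_KO, 28.7% in TET_WT), those of 6000 to 12000 bp by 26.8 and those of 12000 bp and over by 24.3 (42.6% in TET_KO, 18.3% in TET_WT). In points the gain was therefore smallest where CpGs were densest and largest at intermediate spacing. The densest windows were near 0 in both lines, and relative to the TET_WT mean their gain was not the smallest. Among the 15884 windows under 1000 bp, 712 (4.48%) were called higher and 11 lower, compared with 98.4% higher at 3000 to 6000 bp. Of those 712, 378 had a TET_WT mean under 5% and 159 a TET_WT mean of at least 20%.

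**Figure D1:**
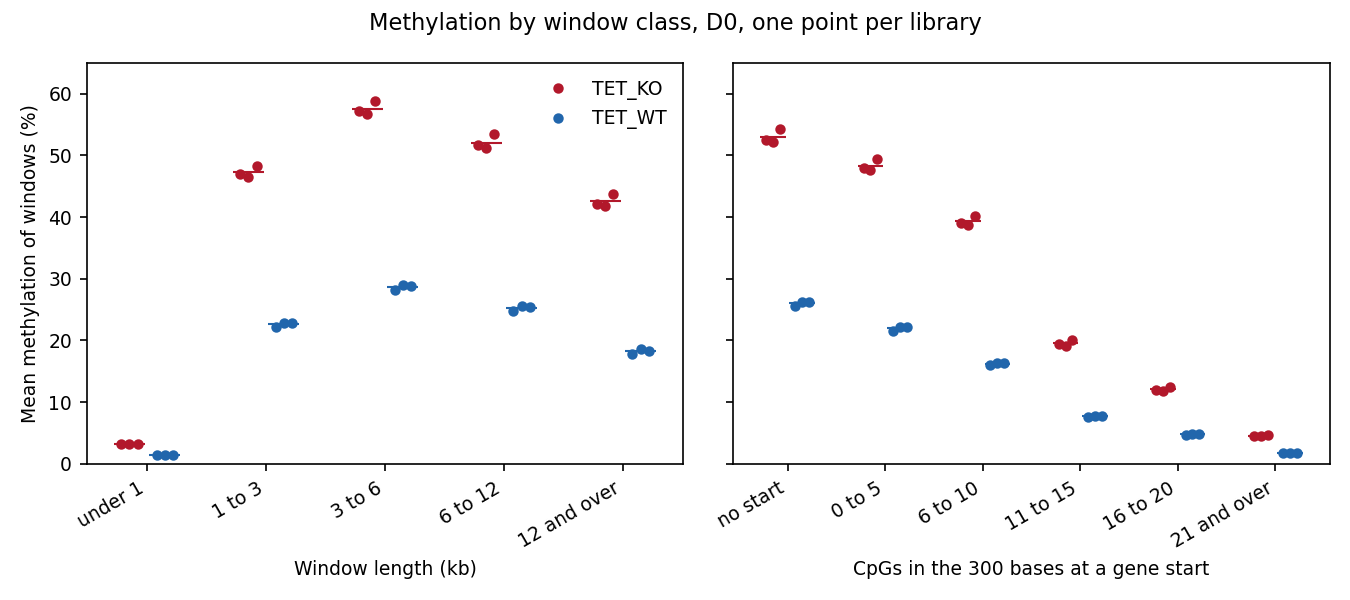
Mean methylation (%) of autosomal windows by window length in kb (left) and by the number of CpGs in the 300 bases at a protein-coding gene start (right) on D0; points are single libraries, lines are means of 3, with TET_KO in red on the left of TET_WT in blue. The lines stand at 3.19 and 1.402% in windows under 1 kb and at 57.6 and 28.7% at 3 to 6 kb, and both fall as CpGs at the start become more numerous.

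**Figure D2:**
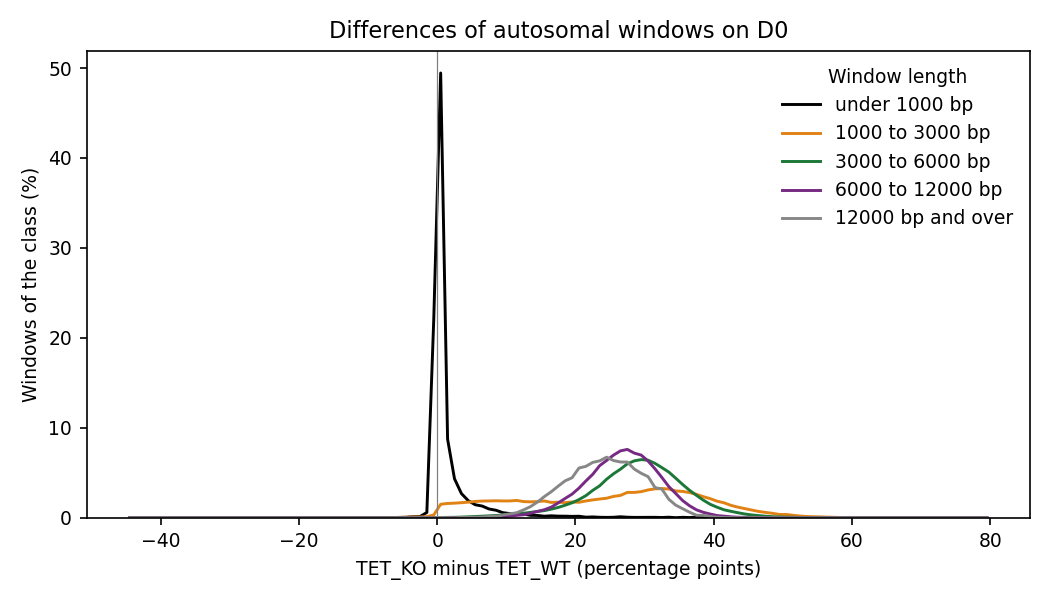
Share of windows (%) in each 1-point bin of the difference TET_KO minus TET_WT (percentage points), 1 line per length class. Windows under 1000 bp pile up next to 0, with a median of 0.317 points, while the 3 longest classes form single peaks with medians of 29.3, 27.02 and 24.4 points and windows of 1000 to 3000 bp spread from 0 to over 40.

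The plot of differences by length shows this as separate shapes: windows of 1000 to 3000 bp had the widest spread, an SD of 13.3 points over windows, against 5.62 at 6000 to 12000 bp. Windows with little methylation in DNMT_WT, the separate line, had little here as well. Where DNMT_WT held under 10% on D2, TET_KO had 2.20% and TET_WT 0.588%, a difference of 1.61 points. Where DNMT_WT held 10 to 30%, 30 to 50%, 50 to 70% and 70% or more, the differences were 19.6, 26.6, 29.9 and 28.5 points. Windows inside protein-coding gene bodies (52.4% of all) and outside them differed by 26.4 and 26.5 points with all lengths pooled. At like length the inside windows had the larger difference at 1000 to 3000 bp (25.5 inside, 22.8 outside), 3000 to 6000 bp (29.6, 27.9) and 6000 to 12000 bp (27.3, 26.5). They had the smaller one under 1000 bp (1.52, 4.43) and at 12000 bp and over (23.7, 24.5). Of the 15884 windows under 1000 bp, 14429 lay inside. Differences at like length were not tested. The autosomes ranged from 25.7 points on chromosome 6 to 27.1 on chromosome 11. Outside the autosomes, the X chromosome had 52.0% in TET_KO and 27.3% in TET_WT, a difference of 24.7 ± 0.712 points over 18560 windows, and the Y chromosome 41.2% in TET_KO and 26.1% in TET_WT, 15.1 ± 0.722 points over 3549 windows.

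At gene starts the difference shrank with the CpG count of the 300 bases. Windows at starts with 0 to 5 CG had 48.3% in TET_KO and 22.0% in TET_WT, a difference of 26.4 points. With 6 to 10 CG the difference was 23.1 points, with 11 to 15 CG 11.8, with 16 to 20 CG 7.30 and with 21 or more 2.82 (4.58% ± 0.110 in TET_KO, 1.76% ± 0.00985 in TET_WT). The low zone around a CpG-rich start was narrow. The window holding the start differed by 2.75 points, the next one upstream by 15.6 and the next one downstream by 11.2, while the second downstream had 24.6, the third 29.0 and the fourth 29.4. In percent, the fourth window downstream had 53.8% in TET_KO and 24.4% in TET_WT, both above the sixth window upstream, at 49.3% in TET_KO and 23.1% in TET_WT. Windows 2 away from any window under 1000 bp, on either side, differed by 29.5 points, more than the 27.3 points of windows 11 or more away.

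**Figure D3:**
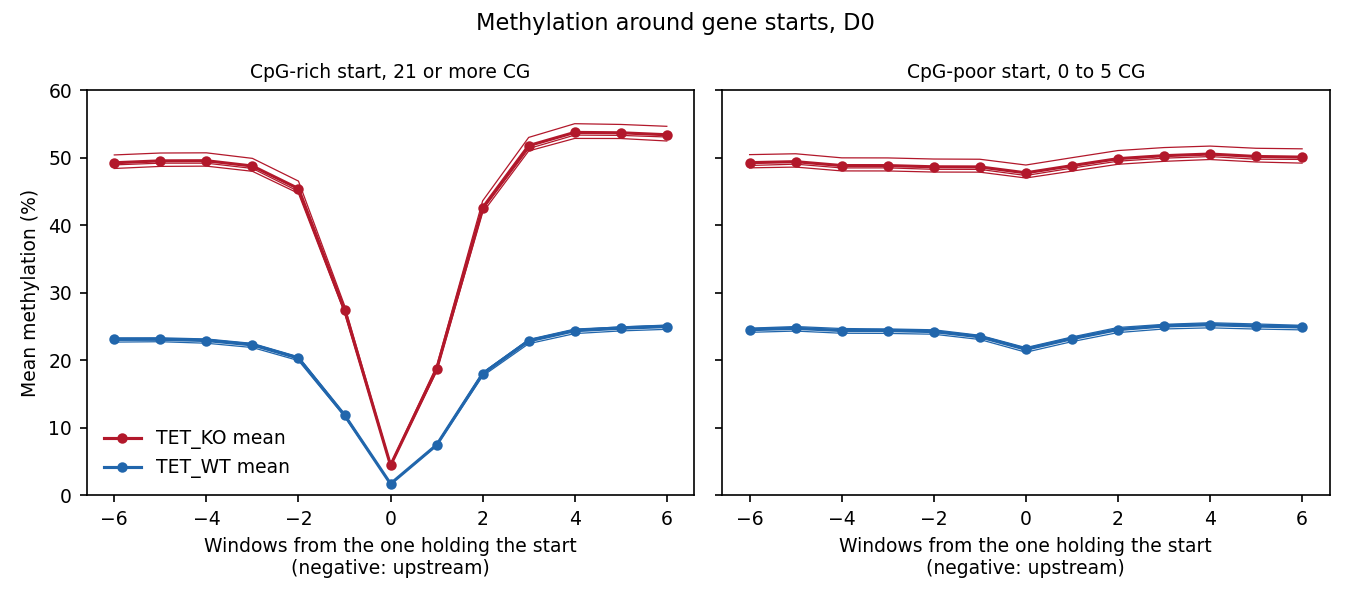
Mean methylation (%) of windows from 6 upstream to 6 downstream of the window holding a protein-coding gene start on D0, for starts with 21 or more CG (left, CpG-rich) and with 0 to 5 CG (right, CpG-poor); thin lines are libraries and points are means of 3, TET_KO in red and TET_WT in blue. At CpG-rich starts both lines dip, to 4.45% in TET_KO and 1.71% in TET_WT, whereas at CpG-poor starts the profiles are nearly flat.

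Counted by gene, 8470 of 15956 autosomal genes (53.1%) were called higher at their start and 4 (0.0251%) lower, with a median difference of 11.7 points. Over gene bodies, taken as the mean of all windows overlapping the gene, 19591 of 20350 genes (96.3%) were higher, with a median of 25.3 points. By limma with Benjamini-Hochberg adjustment 0 gene bodies were lower by 10 points, and 3 were lower at any size, adjusted or at an unadjusted p under 0.05.

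Some windows holding a CpG-rich start were more methylated in TET_KO. Among 4530 genes with a single start region of 21 or more CG, 388 (8.57%) were called higher and 0 lower, and the median difference was 0.380 points. The germline list, genes of meiosis and of the piRNA pathway, had 7 of 10 such starts called, with a median of 13.2 points. Besides Sycp1 and Dazl these were Stag3, a meiotic cohesin subunit gene, at 31.9% ± 1.29 in TET_KO and 7.53% ± 0.116 in TET_WT, and Brdt, a testis bromodomain gene, at 34.1% ± 3.22 in TET_KO and 18.1% ± 1.38 in TET_WT. Mael of the piRNA pathway had 23.6% ± 2.74 in TET_KO and 10.1% ± 2.91 in TET_WT, and Tdrkh of the same pathway 18.7% ± 2.40 in TET_KO and 8.69% ± 1.96 in TET_WT. At Slc25a31, a germ cell ADP/ATP carrier gene, 27.2, 33.6 and 47.1% in TET_KO stood above 24.3, 23.6 and 21.3% in TET_WT, with a wide spread in TET_KO. These genes were picked after their values were seen. Single CpG-rich starts outside that list were as high: Magohb, an exon junction complex gene, had 46.9% ± 3.65 in TET_KO and 10.9% ± 2.07 in TET_WT, and Selenoi, a phospholipid synthesis gene, 47.2% ± 1.89 in TET_KO and 11.5% ± 2.16 in TET_WT.

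The shares called in the other lists and families lay on both sides of 8.57%. Called were 3 of 6 CpG-rich starts of receptors named Gpr, 5 of 15 of potassium channels, 2 of 8 of collagens, 11 of 67 of solute carriers and 7 of 56 of zinc finger genes named Zfp. Among naive pluripotency genes 0 of 9 were called (median -0.149 points), 0 of 15 neuroectoderm starts (0.380), 0 of 10 haematopoietic and endothelial starts (0.191), 0 of 26 ribosomal protein starts (0.131) and 0 of 8 imprinted starts (0.295). With so few starts a list, counts of 0 are near the share over all CpG-rich starts. The letters CACGTG, an E-box that reads the same on both strands, occurred in 13.9% of the CpG-rich starts called higher, in 11.8% of those not called and in 7.15% of all start regions. The letters GCGGGAA, as in E2F sites, searched on both strands, occurred in 11.3%, 12% and 4.60% of the same sets. Each was found in 5 of the 10 germline starts, and neither motif contains the other.

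The 10 windows with the largest gains, taken only where the libraries of the lines did not overlap, had TET_WT means between 0.0597 and 12.5%. Gains of this size require a low TET_WT level. The top window, chr1:138840133-138841660 (GRCm38) inside the Lhx9 gene, held 82.7, 82.8 and 82.0% in TET_KO, against 4.83, 3.42 and 5.15% in TET_WT, a difference of 78.0 ± 1.69 points (adjusted p = 8.34e-22 in limma). Its neighbour, chr1:138841661-138842298, a CpG-dense window of 638 bp, held 80.95, 74.2 and 66.1% in TET_KO, against 0.179, 0 and 0% in TET_WT. The libraries of the lines were far apart in both, and with the start window given above these are 3 neighbouring windows at 1 gene. On D2, the first of them had 88.6% ± 2.47 in TET_KO and 9.08% ± 1.38 in TET_WT, and 17.8% ± 1.85 in DNMT_WT.

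Other windows of this kind had no coding gene. An intergenic pair between Stac2 and Fbxl20, chr11:98066172-98067605 and chr11:98067644-98069508, stood at 70.1% ± 4.62 and 72.8% ± 2.02 in TET_KO, against 1.24% ± 0.657 and 4.83% ± 1.84 in TET_WT. The window chr13:97847418-97849222, 49372 bp from Arhgef28, held 82.8% ± 4.20 in TET_KO and 12.5% ± 5.75 in TET_WT, a difference of 70.3 ± 4.96 points, and the difference was 67.7 ± 2.32 at chr13:99122718-99127217. The window chr13:65982893-65986981, over the long non-coding RNA Gm40987, had 71.3% ± 1.94 in TET_KO and 3.51% ± 0.524 in TET_WT. Inside genes, Nrros, a gene of TGF-beta activation in myeloid cells, differed by 69.9 ± 5.24 points at chr16:32148604-32151733, the atypical cadherin Fat1 by 67.1 ± 2.50 at chr8:45025137-45026169, and Epb41l4a, of a cytoskeletal linker family, by 67.1 ± 2.05 at chr18:33984606-33986685. The Fat1 window had 76.0% ± 5.83 in TET_KO and 8.91% ± 0.608 in TET_WT, and the Epb41l4a window 77.6% ± 3.54 in TET_KO and 10.6% ± 1.39 in TET_WT. By D2 these separated: the Fat1 and Epb41l4a windows reached 47.0% ± 6.06 and 54.2% ± 2.85 in TET_WT, while the Gm40987 window stood at 17.2% ± 2.50 there.

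The 1% of windows with the largest gains, 4222 windows at 45.8 points or more, were shorter than most and lay more often in genes. They had a median length of 2927 bp, 81.2% lay in gene bodies and 1.68% held a start, against 52.4% and 4.13% of all autosomal windows. Their median level was 65.7% in TET_KO and 16% in TET_WT. The 1% with the lowest differences had a median length of 489 bp, 82.6% of them lay in gene bodies and 33.0% held a start.

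**Figure D4:**
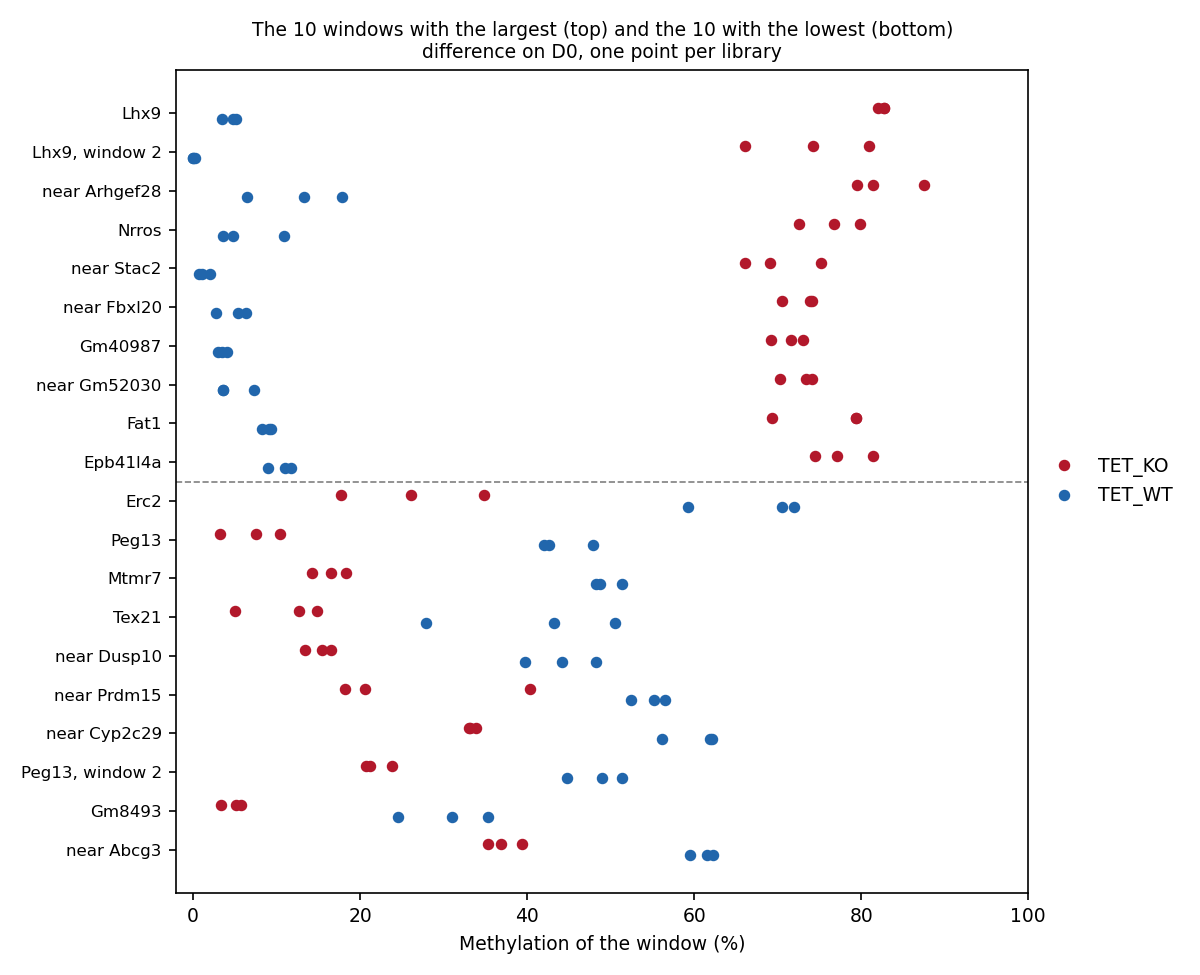
Methylation (%) of the 10 windows with the largest and the 10 with the lowest difference on D0, 1 row per window named by its gene or nearest gene; each point is 1 library, TET_KO in red above TET_WT in blue. Windows were taken only where the libraries of the lines did not overlap, so the order of the lines was set by the choice. In the upper 10 windows every TET_KO library is at 66.1% or more and every TET_WT library at 17.9% or less. In the lower 10 the order is turned round.

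The 92 windows lower in TET_KO fell on 18 chromosomes, with 18 on chromosome 5, 9 on chromosome 8 and 8 on chromosome 1. They included 11 adjoining pairs, and 41 overlapped a protein-coding gene. Several on chromosome 5 lay close together. Windows at Gm20385 and near Abcg3 were among those between positions 104192081 and 104921471, and windows at Gm8493 and Zfp605 among those between 109550059 and 110133802. In 75 of the 92 the libraries of the lines did not overlap. The median of the 92 was 36.1% in TET_KO and 54.2% in TET_WT. Of them 68 had a TET_WT mean of at least 40%, beside a TET_WT 90th percentile of 40.2% over all autosomal windows. A call as lower needs at least 10% in TET_WT, so a raised TET_WT level is partly built in. DNMT_WT on D0 had a median of 5.44% in the 92, beside 2.42% over all autosomal windows, and ranged from 0 to 30.9% among them. The lowest, chr14:27688410-27690283 in Erc2, a gene of the presynaptic active zone, held 17.8, 34.8 and 26.1% in TET_KO, against 70.5, 71.9 and 59.2% in TET_WT (-41.0 ± 3.62 points). The window chr8:40567071-40571237 in Mtmr7, a phosphoinositide phosphatase gene, held 16.5, 18.3 and 14.3% in TET_KO, against 48.2, 51.3 and 48.7% in TET_WT. Tex21 (-29.7 ± 4.95 points), the long non-coding Gm8493 (-25.5 ± 3.33) and intergenic windows nearest Dusp10 (-28.9 ± 2.59), Prdm15 (-28.3 ± 3.66), Cyp2c29 (-26.7 ± 2.61) and Abcg3 (-23.9 ± 2.65) made up the rest of the lowest 10 with Peg13. These 10 were taken only from windows whose libraries did not overlap. In the Prdm15 window 1 TET_KO library stood at 40.3% beside 18.2 and 20.6%.

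Windows at imprinted genes, which carry methylation on 1 parental allele, were among the 92. Peg13, a paternally expressed non-coding RNA inside Trappc9, had 10.4, 3.25 and 7.48% in TET_KO, against 42.0, 47.9 and 42.6% in TET_WT, at chr15:72809399-72810122, and its next window had 21.9% ± 1.68 in TET_KO and 48.4% ± 3.30 in TET_WT. Both Peg13 windows were apart between the lines, and on D2 the first still had 5.67% ± 1.85 in TET_KO and 59.96% ± 5.75 in TET_WT. Peg3, a zinc finger gene expressed from the paternal allele, had 3 adjoining windows called. The one it shares with the start of Usp29 held 6.37, 7.30 and 5.83% in TET_KO, against 23.4, 14.9 and 18.4% in TET_WT, and the window inside Peg3 at chr7:6727526-6729452 averaged 0.574% in TET_KO and 17.9% in TET_WT. Gnas, a complex imprinted locus that encodes a G protein subunit, had 3 windows, averaging 1.67, 2.22 and 0.363% in TET_KO, against 18, 18.5 and 14.4% in TET_WT. A window 27413 bp from Rasgrf1, also imprinted, differed by -14.7 ± 2.26 points. DNMT_WT on D0 was under 4% in each of these windows at Peg13, Peg3, Gnas and Rasgrf1 but the second at Peg13, which had 4.60%. On D0 such levels were not particular to these loci, as the DNMT_WT median over all autosomal windows was 2.42%. On D2 that median was 53.7%, and DNMT_WT had 10.7 and 25.3% in the Peg13 windows. It then had 0.679, 1.04 and 5.71% in the Peg3 windows, 5.61, 2.15 and 0.226% in the Gnas windows and 2.52% near Rasgrf1. These loci were picked out after their values were seen.

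Of the other gene starts called lower, Gm20385, a predicted gene, had 15.6% in TET_KO and 34.5% in TET_WT. Nkx2-1, a homeobox gene of lung and thyroid, had 2.09, 4.32 and 3.43% in TET_KO, against 15.8, 16.5 and 12.1% in TET_WT, at chr12:56536546-56537713, with the libraries apart. Its gene body as a whole was at 5.28% ± 0.710 in TET_KO and 4.20% ± 0.661 in TET_WT, a difference of 1.09 ± 0.441 points that was not called.

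The 29532 uncalled windows were mostly empty in both lines. In 19988 of them all 6 libraries were under 10%, 15161 were under 1000 bp, and 3738 had a TET_WT mean of at least 40%. Windows with a difference under 10 points formed 16281 runs, of which 8273 held a single window, 7527 held 2 to 4, 468 held 5 to 9 and 13 held 10 or more. The longest run, 30 windows at chr9:3000031-3055863 at the very start of the assembled chromosome, overlapped no protein-coding gene and averaged 49.2% in TET_KO and 50.8% in TET_WT. A run of 13 windows at chr10:83405480-83441850 was high in both lines, with 76.3% in TET_KO and 69.2% in TET_WT, and 13 windows at chr17:39840099-39849015 were low, with 2.29% in TET_KO and 4.32% in TET_WT. Runs of 11 windows lay over Skor1, a transcriptional corepressor gene (4.79% in TET_KO, 1.07% in TET_WT), and over Bahcc1 (1.58% in TET_KO, 0.169% in TET_WT). How reads were placed in repeats is not given in the sources used here.

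The counts of genes called in each list below stand beside 96.3% of all gene bodies and 53.1% of all gene starts called higher, and differences between a list and all genes were not tested. All 8 Tet and Dnmt genes with Uhrf1 were called over their bodies, near the share of all genes, with a median difference of 27.4 points beside 25.3 for all genes. Dnmt1 had 59.3, 58.6 and 62.3% in TET_KO, against 23.3, 23.6 and 24.0% in TET_WT (36.5 ± 1.36 points), and Uhrf1 had 39.1, 37.4 and 39.6% in TET_KO, against 7.57, 7.96 and 7.34% in TET_WT (31.1 ± 1.09). The lines did not overlap at either gene. Tet2 and Tet3 differed by 29.0 ± 1.21 and 25.8 ± 0.953 points, and the genes for new methylation, Dnmt3a, Dnmt3b and its cofactor Dnmt3l, by 25.03 ± 0.899, 20.8 ± 1.05 and 23.9 ± 1.09. At the start the order was different: Dnmt3l, with 6 CG, had 33.2% in TET_KO and 11.2% in TET_WT, Dnmt3b, with 30 CG, 17.1% in TET_KO and 4.56% in TET_WT, Tet1, with 17 CG, 7.41% in TET_KO and 1.23% in TET_WT, and Tet2, with 57 CG, 0.415% in TET_KO and 0.167% in TET_WT. Dnmt1 differed by 19.9 points over the 2 windows that hold its starts, and 3 of the 8 genes were called there.

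Factors that act on oxidised cytosine or with TET proteins were called in 19 of 23 cases, with a median of 22.8 points. Parp1, a DNA break sensor of base excision repair, had 52.3% ± 0.668 in TET_KO and 21.6% ± 0.424 in TET_WT, and Neil3, a DNA glycosylase, 54.7% ± 1.88 in TET_KO and 25.7% ± 1.01 in TET_WT. Gadd45b, a stress-response gene linked to demethylation, had 2.31% ± 0.155 in TET_KO and 0.120% ± 0.0502 in TET_WT and was not called. Of the readers of methylated DNA and protectors of imprints 14 of 15 were higher, with a median of 22.7 points. Zbtb38, a zinc finger protein that binds methylated CpG, differed by 38.0 ± 1.28 points and Ctcfl, a testis paralogue of Ctcf, by 29.0 ± 1.24, while Mbd3 of the NuRD complex differed by 12.6 ± 0.644. Trim28, the corepressor that keeps imprints and retroelements silent, had 11.1% ± 0.355 in TET_KO and 1.29% ± 0.393 in TET_WT, just under the 10-point minimum. Polycomb and trithorax genes were higher in 31 of 33 cases over bodies (median 24.7 points) but in 3 of 24 at their starts (0.651). The histone methyltransferase gene Kmt2d differed by 32.9 ± 1.12 points and the PRC2 partner Jarid2 by 31.0 ± 1.18, and Bmi1, a PRC1 subunit, had 11.1% ± 0.251 in TET_KO and 7.05% ± 0.289 in TET_WT.

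Signalling genes had body medians of 23.7 to 24.9 points, beside 25.3 for all genes, and start medians of 1.08 to 3.18, beside 11.7. Wnt genes were higher in 52 of 58 bodies (median 24.9 points) and 8 of 35 starts (2.24). The Wnt receptor ligase gene Rnf43 had 54.3% ± 0.670 in TET_KO and 18.7% ± 0.423 in TET_WT, the inhibitor gene Dkk4 differed by 33.0 ± 1.13 points, and the receptor gene Fzd10 had 1.34% ± 0.414 in TET_KO and 0.120% ± 0.0830 in TET_WT, uncalled. Nodal, TGF-beta and BMP genes were higher in 44 of 50 bodies (23.7) and 7 of 29 starts (3.18), led by the ligand gene Gdf5 at 37.8 ± 1.76 points and the receptor gene Acvr1 at 32.1 ± 1.23, while the BMP antagonist gene Nog had 3.78% ± 0.410 in TET_KO and 0.634% ± 0.113 in TET_WT. FGF and ERK genes were higher in 36 of 39 bodies (24.3) and 4 of 24 starts (1.08). The ligand gene Fgf1 differed by 37.6 ± 1.31 points and the feedback inhibitor gene Spred2 by 37.0 ± 1.16, and Fgf4, the FGF ligand of pluripotent cells, had 6.45% ± 0.608 in TET_KO and 2.16% ± 0.499 in TET_WT, uncalled.

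Haematopoietic and endothelial regulators were higher in 50 of 54 bodies (92.6%, median 26.3 points) and 19 of 40 starts (47.5%, median 7.87), near the 96.3% and 53.1% of all genes. Kit, the receptor of stem cell factor, had 57.8, 57.7 and 59.5% in TET_KO, against 21.1, 20.96 and 23.1% in TET_WT, and Etv6, a repressor needed in blood stem cells, had 61.7, 61.6 and 63.9% in TET_KO, against 25.9, 26.3 and 26.3% in TET_WT. At both genes the lines were apart over the body, yet their starts, with 21 and 17 CG, were near 0, with 0.571% in TET_KO and 0.131% in TET_WT at Kit and 0.332% in TET_KO and 0.116% in TET_WT at Etv6. Eng, an endothelial co-receptor gene whose start holds 6 CG, gained at both places, by 35.2 ± 0.982 points over the body and 28.6 at the start. Cebpb, a myeloid factor gene, had 8.97% ± 0.167 in TET_KO and 3.43% ± 0.513 in TET_WT and was not called.

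Mesoderm and endoderm genes were higher in 32 of 34 bodies (19.15 points) and 10 of 24 starts (6.75), with Tbx6 at 43.9 ± 2.63 and Msgn1, another factor of presomitic mesoderm, at 35.7 ± 1.82, while Hand2 of the heart field had 12.97% ± 0.622 in TET_KO and 4.85% ± 0.302 in TET_WT. Primitive endoderm and trophoblast genes were higher in 23 of 25 bodies (27.4) and 10 of 17 starts (24.7), among them Gcm1 of the placenta at 35.7 ± 1.404 and Ttr of the visceral endoderm at 33.7 ± 1.48, with Ascl2 of the trophoblast at 7.18% ± 0.320 in TET_KO and 2.51% ± 0.303 in TET_WT. Fibroblast genes were higher in 22 of 23 bodies (27.5) and 8 of 14 starts (21.3). Fn1, which encodes fibronectin, differed by 38.7 ± 1.08 points, and Twist1 had 14.1% ± 1.26 in TET_KO and 4.73% ± 0.372 in TET_WT.

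Neuroectoderm, Hox, and homeobox and T-box genes had the lowest body medians among the developmental lists. Of 29 neuroectoderm genes 15 were higher over the body, with a median of 10.6 points, and 1 of 21 at the start (0.471). Pax3, of neural crest and muscle, had 50.6% ± 1.05 in TET_KO and 24.1% ± 0.616 in TET_WT, whereas Dlx2, of forebrain interneurons, had 4.48% ± 0.249 in TET_KO and 1.37% ± 0.284 in TET_WT. Sox2, a core pluripotency and neural factor gene, was near 0 in each library, with 0.264, 0.223 and 0.160% in TET_KO and 0.125, 0.400 and 0.0875% in TET_WT, and the lines overlapped. Homeobox and T-box regulators were higher in 55 of 90 bodies (12.8 points) and 13 of 61 starts (2.80), with 1 start, Nkx2-1, lower. Lhx9 differed by 40.6 ± 0.804 over its body and the kidney and thyroid gene Pax8 by 28.3 ± 1.16, while the epiblast factor gene Foxd3 had 0.578% ± 0.286 in TET_KO and 0.293% ± 0.259 in TET_WT. Of 39 Hox genes 22 were higher, with a median of 11.1 points, from Hoxd4 (25.6 ± 1.38) and Hoxc4 (25.1 ± 0.965) down to Hoxd11 with 5.92% ± 0.718 in TET_KO and 2.06% ± 0.607 in TET_WT. At their starts Hox genes were not low, with 12 of 21 higher (57.1%, median 12.6 points), beside 53.1% and 11.7 points for all starts. Lists of naive pluripotency genes (21 of 31 bodies, 3 of 18 starts), formative and primed epiblast genes (24 of 29, 6 of 17), germline genes (49 of 50, 34 of 42) and imprinted loci (33 of 39, 11 of 30 with 2 lower) had start medians of 0.179, 2.14, 23.2 and 5.14 points.

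**Figure D5:**
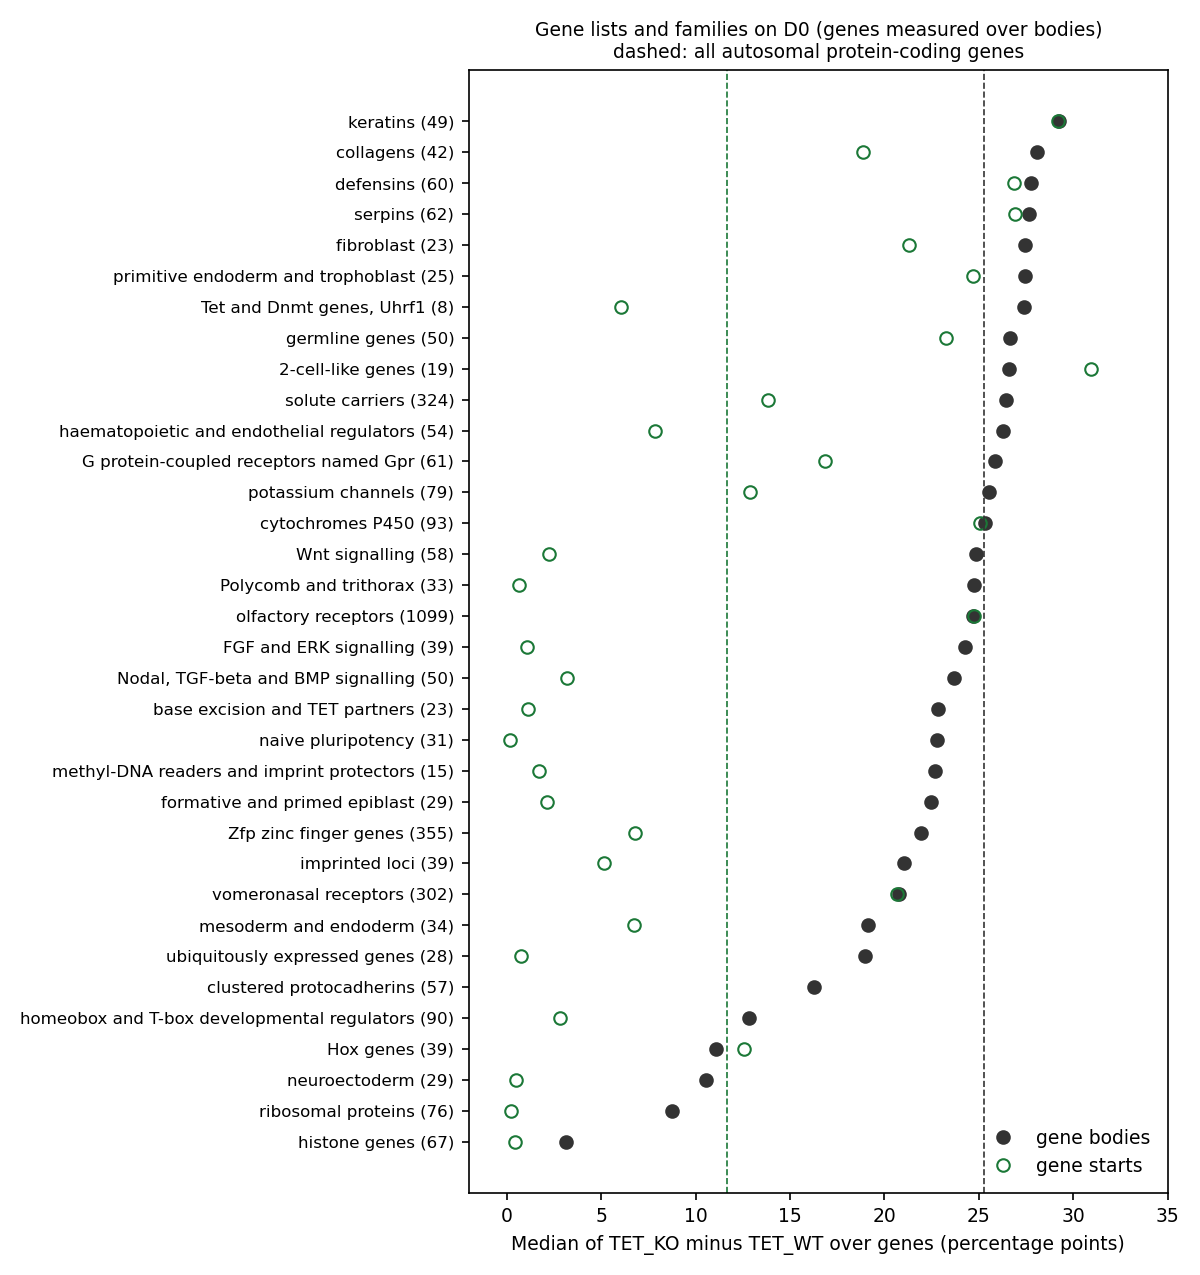
Median difference TET_KO minus TET_WT (percentage points) over the genes of each list or family, for gene bodies (filled) and gene starts (open), with the number of genes measured over bodies in brackets and dashed lines at the medians of all autosomal genes, 25.3 and 11.7. Body medians lie mostly between 20 and 29.2, with histone and ribosomal protein genes at 3.14 and 8.75, whereas start medians run from near 0 to 30.9.

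Multigene families filled the range, and reads from near-identical copies may be placed uncertainly there. In families whose median start held 5 CG or fewer the shares called over bodies and at starts were close. Olfactory receptors were higher in 1096 of 1099 bodies (median 24.7 points) and 920 of 924 starts (24.7), and vomeronasal receptors in 284 of 302 and 248 of 268. Keratins were higher in 49 of 49 bodies and 33 of 35 starts, and defensins in 60 of 60 and 36 of 36. Cytochromes P450 were higher in 93 of 93 bodies and 67 of 72 starts, and serpins in 62 of 62 and 49 of 52. A gene lying in 1 window, such as Olfr750, Defa35 or Defa41, has the same value for body and start, so this closeness is partly built in. Other families had counts called over bodies and at starts as follows: solute carriers (323 of 324 and 138 of 241), collagens (42 of 42 and 23 of 33), potassium channels (77 of 79 and 35 of 55), receptors named Gpr (57 of 61 and 28 of 42) and zinc finger genes named Zfp (350 of 355 and 114 of 291). Clustered protocadherins, cell surface proteins of neurons, were higher in 57 of 57 bodies with a median of 16.3 points, between 11.1 ± 0.794 at Pcdhb21 and 24.4 ± 1.04 at Pcdhgc5. Some of these genes overlap and share windows, as Pcdhga12, Pcdhgc4 and Pcdhgc5 do, so the 57 are not separate measurements. The 2-cell-like genes were higher in 19 of 19 bodies and 14 of 14 starts (30.9 points), with Pramel7 at 72.2% ± 2.81 in TET_KO and 24.7% ± 1.32 in TET_WT, Zscan4f at 57.5% ± 1.59 in TET_KO and 22.5% ± 3.14 in TET_WT, and Tdpoz1 lowest at 15.7 ± 1.82 points.

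Histone and ribosomal protein genes had the lowest body medians of all lists and families. Histone genes were higher in 15 of 67 bodies and 8 of 60 starts, with medians of 3.14 points over bodies and 0.415 at starts. Their median start held 10.5 CG, beside 21.5 for ribosomal protein genes. The testis histone genes H2bc1 and H2ac1, neighbours on chromosome 13 that share a window, stood apart. H2bc1 had 45.4% ± 4.74 in TET_KO and 4.82% ± 1.31 in TET_WT, and H2ac1 47.4% ± 2.23 in TET_KO and 12.2% ± 1.36 in TET_WT. Ribosomal protein genes were higher in 35 of 76 bodies (8.75) and 7 of 56 starts (0.244), and ubiquitously expressed genes in 20 of 28 (18.98) and 5 of 22 (0.740), from Gusb, a lysosomal enzyme gene, at 35.3 ± 1.14 points to Rpl13a at 0.780% ± 0.368 in TET_KO and 0.466% ± 0.333 in TET_WT. Single family members differed widely. Olfr750 had 61.2% ± 3.09 in TET_KO and 16.8% ± 1.98 in TET_WT, whereas Olfr94, with 2 windows, had 3.70% ± 0.843 in TET_KO and 0.935% ± 0.264 in TET_WT. Zfp568, a repressor of placental Igf2, differed by 36.7 ± 1.32 points, and Zfp605, part of which lay in a window that was lower by -23.7 ± 3.29 points, by 5.73 ± 1.09 over the body.

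Among genes of at least 3 windows the 3 largest body differences were those of Nrros (42.6 ± 1.39 points), the bile acid transporter gene Slc10a1 (42.4 ± 1.27) and Samd11 (42.1 ± 1.81). Scd2, a fatty acid desaturase gene, had 43.8, 44.9 and 46.0% in TET_KO, against 3.41, 3.995 and 3.57% in TET_WT. Itpk1, an inositol phosphate kinase gene of 43 windows, differed by 40.9 ± 1.18 points, and Mcm3, a replication helicase gene, by 40.7 ± 1.18 over the body but by 4.82 at its start. TET_KO was higher in all 3 libraries at each of them, which the choice of these genes required. At the other end, among genes of at least 10 windows, Skor1 (6.13 ± 0.359 points), Six3 (6.74 ± 0.423), Hmx1 (6.88 ± 0.505) and Shh (7.70 ± 0.604), with Skint5 (8.27 ± 0.954), were the 5 nearest 0, with Shh at 12.9% ± 0.244 in TET_KO and 5.16% ± 0.226 in TET_WT.

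The D0 difference was compared with those of D1 and D2 by an interaction term in the same fit. For D1 against D0, limma called 0 windows (0%) in either direction, with 30340 at an unadjusted p under 0.05 and a median change of -0.143 points. For D2 against D0 the difference was smaller in 191632 windows (45.4%) and larger in 9380 (2.22%), with a median change of -8.98 points. This balance depended on the scale: with each library centred on its median the difference was larger in 71159 windows and smaller in 36884, and on the log2 ratio scale it was larger in 472 and smaller in 117726. Leaving out 1 library gave between 7012 and 16407 larger, 16407 being the count without TET_WT D2 replicate 2. Over gene bodies, uncentred, the difference was smaller on D2 in 9642 (47.4%) and larger in 219 (1.08%). A window in Acly, the ATP citrate lyase gene, at chr11:100497519-100499740 had 78.7% ± 2.58 in TET_KO and 21.7% ± 0.601 in TET_WT on D0, and 84.7% ± 1.89 in TET_KO and 79.0% ± 7.22 in TET_WT on D2. A window 6514 bp from Pramel6, at chr2:87517379-87522101, likewise closed from 60.8 ± 2.59 points on D0 to 11.5 ± 2.59 on D2. The reverse was seen at chr16:45566294-45571078 in Slc9c1, a sperm sodium-proton exchanger gene, where TET_KO had 47.1% ± 14.8 and TET_WT 43.3% ± 9.49 on D0, and 75.5% ± 20.2 in TET_KO and 39.8% ± 7.94 in TET_WT on D2. Lhx9 kept its place: its body difference changed by 3.33 ± 1.14 points between D0 and D2.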

How the data were processed

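Libraries were made from sheared DNA with methylated adapters, bisulfite conversion and amplification, per the labels' protocols. Trim Galore 0.6.6, cutadapt 2.3 and Bismark 0.23.0 with GRCm38 are named in the submitters' processing notes. The authors deposited methylation as a percent per library and window, with no read counts beside it. How windows were filled and which coverage was required are not given in the sources used here. The members, gene lists and families were chosen with earlier results of these data known, and classes by CG at the start, distance classes, CpG-rich starts and the searched motifs were added after the table was seen.

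Percentages were used as deposited. A model with a mean for each of 9 groups over 27 libraries was fitted with limma 3.58.1 (R 4.3.3, trended empirical Bayes), to 444250 windows, 21430 gene bodies and 16829 gene starts, and p-values were adjusted over each table by Benjamini-Hochberg. The window fit had 18 residual degrees of freedom and a median residual SD of 2.60 points, and it was tested on simulated data. Class and genome means were compared by exact permutation of 3 against 3 libraries. Other steps ran in Python 3.11.15 with matplotlib 3.10.9, pandas 2.3.3 and numpy 2.4.6. A gene's body is the mean of windows overlapping it in the RefSeq table (GRCm38.p6), and 1928 autosomal genes lay in 1 window. A gene's start is the mean of windows holding a RefSeq start.

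For each list or family the 4 called genes with the largest and the 2 with the smallest difference could be named, the Tet and Dnmt genes and Uhrf1 always, over all genes the 15 largest, 10 lowest called and 5 nearest 0, and 10 windows in each direction (5 for changes between days). The 15 largest and 10 lowest called genes and the windows had to have libraries that did not overlap between the lines. For changes between days this held on the day of the larger difference. Alternatives were the 6 compared libraries alone, no variance trend, a log2 ratio scale, centring, minima of 20 and 0 points, a replicate block, window length limits, sex chromosomes, and leaving out each library. Same-numbered libraries of the lines had correlations of residuals between -0.0104 and 0.00237, so numbers were not taken as pairs. Any 2 of the 6 libraries shared at most 0.009% identical values.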

Additional observations from a re-analysis of the deposited data

Results flagged for a closer look

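The difference between TET_KO and TET_WT on D2 departed from that on D0 in many windows, by the interaction term of the limma fit: it was smaller in 191632 windows and larger in 9380. Centring each library on its median turned the balance round, to 71159 larger and 36884 smaller, and the log2 ratio scale gave 472 larger and 117726 smaller. The 5 windows with the largest decrease were in Acly (-51.2 points), 6514 bp from Pramel6 (-49.3), 19429 bp from Elf3 (-48.4), in an intergenic stretch of chromosome 1 at chr1:103117389-103119316 (-46.2) and in Gltp, a glycolipid transfer protein gene (-43.7). In the Elf3 window TET_KO had 61.7% ± 2.89 and TET_WT 20.97% ± 0.947 on D0, and 65.8% ± 4.78 in TET_KO and 73.4% ± 9.61 in TET_WT on D2. In the Gltp window TET_KO had 65.7% ± 4.84 and TET_WT 8.27% ± 0.553 on D0, and 85.0% ± 2.24 in TET_KO and 71.3% ± 5.89 in TET_WT on D2.

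The 5 windows with the largest increase were in Slc9c1 (31.9 points), 18110 bp from Scgb2b20 (29.2), in Wdr49 (29.2), 455613 bp from Akr1e1 (25.02) and 643985 bp from Gm33989 (24.9). Their replicates were far apart on D0: the Wdr49 window had 54.5, 41.0 and 25.4% in TET_KO, and 9.45, 38.3 and 51.3% in TET_WT. The Scgb2b20 window had 24.4% ± 5.20 in TET_KO and 26.2% ± 6.14 in TET_WT on D0, and 52.9% ± 9.29 in TET_KO and 25.6% ± 1.90 in TET_WT on D2.

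The 6 mitochondrial windows, outside every comparison above, averaged 0.159, 0.192 and 0.198% in TET_KO and 0.117, 0.107 and 0.130% in TET_WT, so that TET_KO, at 0.183%, lay above TET_WT, at 0.118%, in all 3 libraries (exact permutation p = 0.1, the smallest possible). Unconverted cytosine and methylation cannot be told apart at this level.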

How the results depend on the processing

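Counts on D0 were steady under most alternatives. Centring each library on its median moved them most, by its construction: 16118 windows were then higher and 78545 lower, 64 gene bodies higher and 4711 lower, and 185 gene starts higher and 10482 lower. The class differences became -28.6, -5.70, -1.51, -3.59 and -6.09 points from the shortest to the longest windows, -28.8, -10.8, -3.73, -0.514 and -1.86 from the lowest to the highest DNMT_WT class, -3.99 inside and -3.87 outside gene bodies, -3.41, -4.00, -7.32, -18.5, -23.1 and -27.6 from no start through 0 to 5 CG up to 21 or more, and -4.65 and -3.26 on chromosomes 6 and 11. Of the named genes and windows 37 values turned negative when centred: Tet2 -1.41, Tet3 -4.54, Dnmt3a -5.34, Dnmt3b -9.53, Dnmt3l -6.51, Neil3 -1.43, Gadd45b -28.2, Ctcfl -1.33, Mbd3 -17.8, Trim28 -20.5, Bmi1 -26.3, Cebpb -24.8, Pax3 -3.84, Sox2 -30.4, Dlx2 -27.3, Hand2 -22.3, Ascl2 -25.7, Twist1 -21.0, Fzd10 -29.2, Nog -27.2, Fgf4 -26.1, Pax8 -2.08, Foxd3 -30.1, Nkx2-1 -29.3, Tdpoz1 -14.7, Rpl13a -30.1, Hoxd4 -4.80, Hoxc4 -5.27, Hoxd11 -26.5, Olfr94 -27.6, Zfp605 -24.6, Pcdhgc5 -5.97, Pcdhb21 -19.3, Skor1 -24.2, Six3 -23.6, Shh -22.7, Hmx1 -23.5.

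A minimum of 20 points left 21 lower windows, 5601 higher and 0 lower gene starts, 42 larger and 33885 smaller differences on D2. With no minimum there were 272 lower windows, 3 lower gene bodies, 33 lower gene starts and 24362 larger differences on D2. The log2 ratio scale gave 2 larger and 98 smaller differences on D1, and 472 larger and 117726 smaller on D2. Centring gave 7 and 52 on D1, and 71159 and 36884 on D2. Windows of 1000 to 12000 bp alone gave 6098 larger differences on D2. The median in place of the mean gave a genome difference of 30.5 points.

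Leaving out 1 library gave 91 to 113 lower windows, 0 to 1 lower gene bodies, 4 to 7 lower gene starts, 0 to 2 larger and 0 to 69 smaller differences on D1, and 7012 to 16407 larger on D2. The 69 arose without TET_WT D1 replicate 2 and the 16407 without TET_WT D2 replicate 2; 7 lower starts arose without TET_WT D0 replicate 1. The body value of Sox2, near 0, lay between -0.0473 and 0.109 points when 1 library was left out. The Wdr49 change lost its call in 9 alternatives. With the replicate block 392519 windows were higher and 93 lower, and the genome difference was 26.4 points, so the block changed no call among the named genes and windows. Depth per window is unknown, which limits single windows more than classes.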
